A study of Mus musculus with 12 samples.

Results

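The genes described here carry symbols of mitochondrial ribosomal proteins, and all but *Mrps36* encode subunits of the mitochondrial ribosome. They were taken as every protein-coding gene of the count table whose mouse symbol is *Mrpl* or *Mrps* followed by a digit. This gave 78 of the 54232 genes in the table, 49 of the large subunit (*Mrpl*) and 29 of the small subunit (*Mrps*). The table came from the livers of 6 WT and 6 *Marchf6* liver-knockout (LKO) mice, with 1 mRNA library per mouse.

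All mice were male C57Bl/6J littermates, 10 weeks old, fed standard chow and fasted for 4 h. Both groups were homozygous for a floxed *Marchf6* allele, and the LKO mice alone also carried Cre under the albumin promoter. Deletion was therefore limited to cells that use this promoter, mainly hepatocytes, while the libraries came from whole liver tissue. *Marchf6* encodes a ubiquitin ligase of the endoplasmic reticulum membrane.

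Mitochondrial ribosomes translate the few mRNAs of the mitochondrial genome, all of which encode core subunits of oxidative phosphorylation. Their RNAs come from the mitochondrial genome, but their proteins are encoded in the nucleus, made in the cytosol and imported. Many have relatives in the bacterial ribosome and the rest are found only in mitochondria. Hepatocytes are rich in mitochondria, and their ribosomal proteins must be supplied together because unassembled ones are degraded.

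Each liver had 14860414 to 22111926 counts in total, and this depth bears on counting error alone. Levels are given in CPM, the count of a gene as a share of its library after TMM scaling. Differences are log2 fold changes of LKO over WT, fitted with edgeR for the 17509 genes in which 6 or more livers held over 2 reads. A gene was called when its p, adjusted over all of these genes by the Benjamini-Hochberg method, was under 0.05.

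*Marchf6* itself had a mean of 241 ± 8.36 CPM in WT and 226 ± 16.5 CPM in LKO livers (SD, n = 6 each). Its log2 fold change was -0.093 ± 0.060 (SE), with an adjusted p of 0.585 in edgeR, and the groups overlapped. The count covers the whole gene and the deletion removes a single exon, so this value does not check the genotype labels. The hepatocyte markers did fit the labelled tissue: albumin (*Alb*), the most abundant, stood at 76045 ± 7051 CPM in WT and 66947 ± 2144 CPM in LKO livers.

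Of the 78 genes, 77 passed the filter, 48 of the large and 29 of the small subunit. None was called in either subunit by edgeR, while 75 of 17509 genes tested, or 0.428%, were called over the whole table. The limma voom test also called 0 members. DESeq2 called 1 of the 77, *Mrps36*, or 1.30%, against 350 of all genes, or 1.999%. At an unadjusted p under 0.05, edgeR gave 1 large subunit gene (*Mrpl13*) and 2 small subunit genes (*Mrps36* and *Mrps11*), all higher in LKO livers and none lower. Over all genes tested, 6.33% were higher and 5.36% lower at that p. Members at that p numbered 5 (6.5%) without LKO replicate 1, and 1 (1.3%) without LKO replicate 4 and with the replicate number as a block. The shares over all genes were then 11.9%, 11.4% and 13.3%. A p above the threshold does not show that a gene was the same in both groups.

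The fitted differences were small. The median log2 fold change was 0.040 over the large subunit and 0.032 over the small subunit, against 0.00015 over all genes tested. Of the large subunit genes, 32 lay above 0 and 16 below, and of the small subunit genes, 22 lay above and 7 below. Over all genes, 8762 lay above and 8747 below. These splits depended on the scaling: with total count alone, 45 of 48 and 26 of 29 lay above 0, with medians of 0.097 and 0.090, against 10896 of 17509 and 0.056 over all genes. With that scaling 13 members (16.9%) had an unadjusted p under 0.05, against 2304 of all genes (13.2%), and 0 members were called by edgeR. Without LKO replicate 6 the small subunit had 17 of 29 above 0 and a median of 0.014. The quartiles were -0.011 and 0.086 for the large subunit and 0.0013 and 0.064 for the small subunit. Over all genes they were -0.12 and 0.15.

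**Figure D1:**
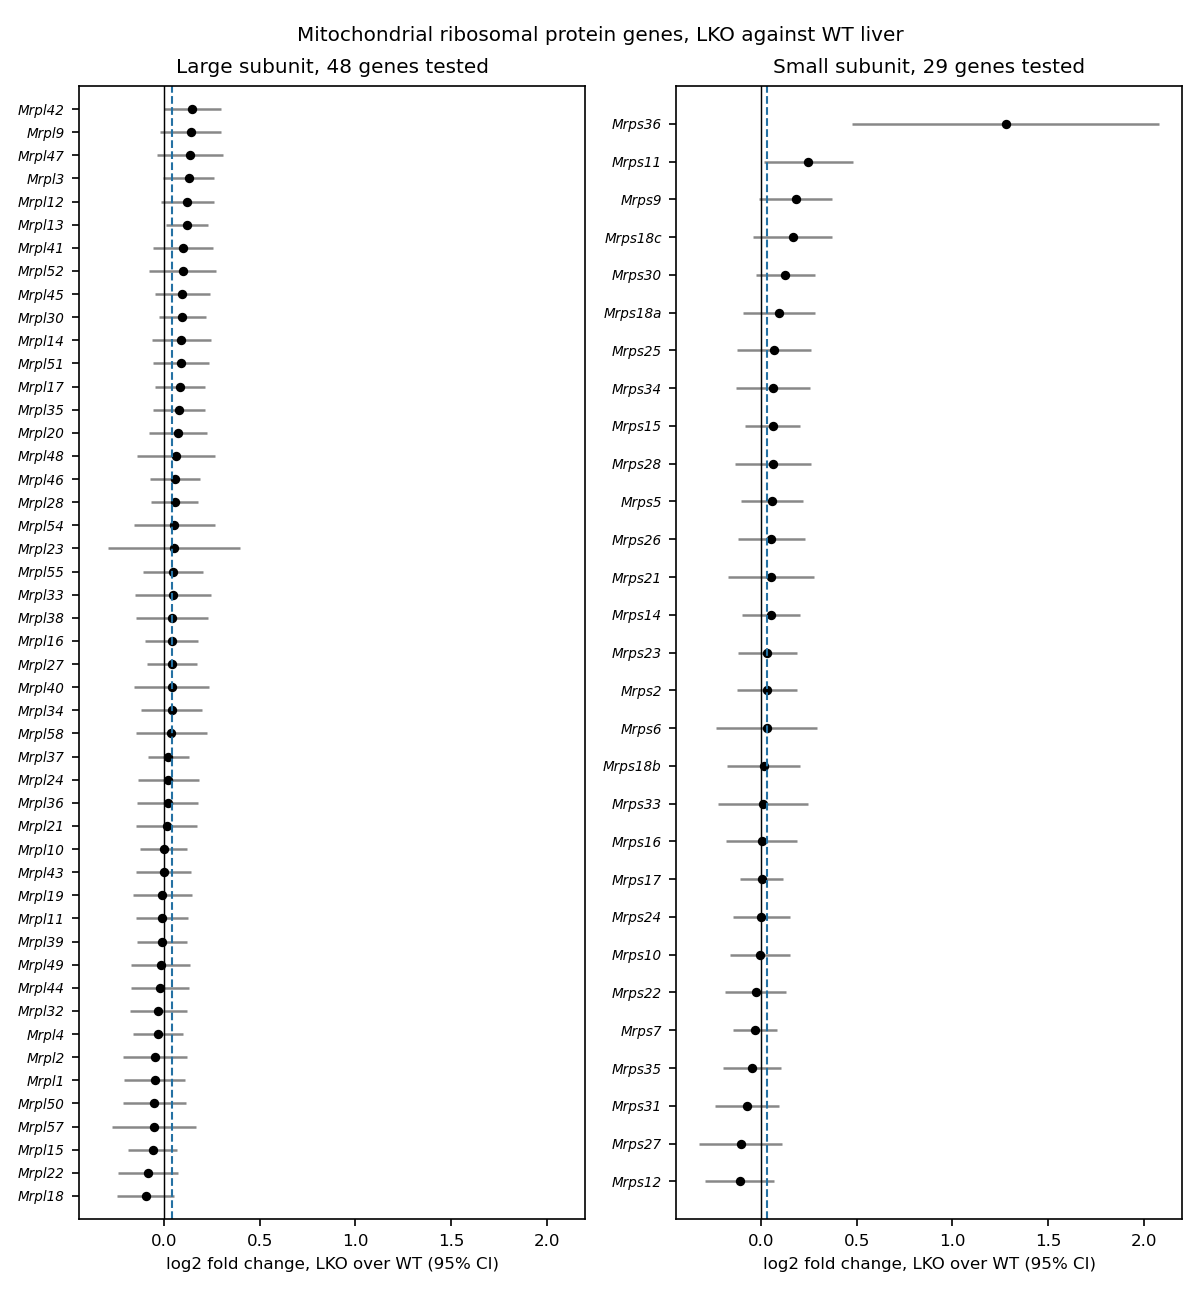
Log2 fold change of LKO over WT (x axis) for each gene tested, 48 of the large and 29 of the small subunit, with 95% confidence intervals; the dashed line marks each subunit's median. Apart from *Mrps36* at 1.28, every point lay between -0.11 and 0.25.

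The data limited these differences closely. For 71 of the 77 genes tested, the whole 95% confidence interval lay inside a 1.25-fold change in either direction, and for 76 inside a 1.5-fold change. The exception to the wider bound was *Mrps36*. Over all genes tested, 31.6% of the intervals lay inside the narrower bound and 57.1% inside the wider one. These shares were 87.5% and 96.25% for nuclear oxidative phosphorylation genes, and 48.1% and 91.1% for cytosolic ribosomal protein genes. The members tested had a median level of 8.69 CPM per kb of exon, against 1.91 over all genes tested. No set of genes of like level was compared. The median standard error was 0.071 for the large subunit and 0.084 for the small subunit, against 0.15 over all genes. Livers of the same group also differed little: the median within-group SD of log2 CPM was 0.11 and 0.13 in the subunits and 0.27 over all genes.

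Genes of the stalk, the flexible arm of the large subunit that recruits translation factors, come first. *Mrpl12*, the stalk protein itself, stood at 35.1, 37.2 and 38.1 CPM (lowest, median, highest) in WT and at 34.6, 40.2 and 45.1 CPM in LKO livers. The LKO range enclosed the WT range, and 5 of 6 LKO livers lay above the WT mean. The log2 fold change was 0.12 ± 0.065 (SE), with an adjusted p of 0.496 in edgeR. *Mrpl10*, which anchors the stalk, had a median of 28.7 CPM in WT and 28.9 CPM in LKO livers. *Mrpl11*, at the base of the stalk, had medians of 20.99 and 21.08 CPM. Both differences were within 1 SE of 0.

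*Mrpl13*, a core protein with a bacterial relative, had the lowest unadjusted p of the large subunit. It stood at 24.7, 25.6 and 26.3 CPM (lowest, median, highest) in WT and at 26.3, 27.9 and 29.3 CPM in LKO livers. The highest WT liver and the lowest LKO liver met at the same rounded value, and all 6 LKO livers lay above the WT mean. Its log2 fold change was 0.12 ± 0.051 (SE; 95% confidence interval 0.012 to 0.23), with an adjusted p of 0.365 in edgeR. This corresponds to a 1.09-fold difference.

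Other large subunit genes with low unadjusted p were *Mrpl42*, found only in mitochondria, and *Mrpl3* and *Mrpl9*, relatives of bacterial core proteins. *Mrpl42* had medians of 27.2 CPM in WT and 30.4 CPM in LKO livers and a log2 fold change of 0.15 ± 0.071 (SE; adjusted p of 0.434 in edgeR). *Mrpl3* had medians of 21.1 and 23.0 CPM and a log2 fold change of 0.13 ± 0.063 (SE; adjusted p of 0.449 in edgeR). *Mrpl9* had medians of 33.1 and 36.9 CPM and a log2 fold change of 0.14 ± 0.075 (SE; adjusted p of 0.496 in edgeR). In each of these genes the groups overlapped, and at least 5 of 6 LKO livers lay above the WT mean.

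The large subunit genes *Mrpl58* and *Mrpl44*, which encode enzyme-like proteins, had log2 fold changes of 0.037 ± 0.087 and -0.023 ± 0.071 (SE). *Mrpl58*, a peptidyl-tRNA hydrolase that frees stalled ribosomes, ranged from 15.3 to 20.2 CPM in WT and from 15.3 to 20.05 CPM in LKO livers. *Mrpl44*, which has a fold related to ribonuclease III, ranged from 19.0 to 23.1 CPM in WT and from 18.7 to 23.1 CPM in LKO livers. The groups of both genes covered nearly the same range.

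In the small subunit, *Mrps12* belongs to the decoding centre, where codon and anticodon are matched. It stood at 16.7, 21.7 and 23.7 CPM (lowest, median, highest) in WT and at 17.7, 20.2 and 20.9 CPM in LKO livers. It had the lowest log2 fold change of the subunit, -0.11 ± 0.084 (SE; adjusted p of 0.658 in edgeR). All 6 LKO livers lay below the WT mean, yet inside the WT range. WT replicate 6 alone set the lower end of that range, and the next lowest WT liver stood at 20.3 CPM. Over the alternatives the log2 fold change of *Mrps12* ran from -0.17 to -0.052.

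*Mrps11*, a protein of the small subunit platform, stood at 6.93, 8.11 and 10.2 CPM (lowest, median, highest) in WT and at 8.16, 9.80 and 11.2 CPM in LKO livers. The groups overlapped, with 5 of 6 LKO livers above the WT mean. Its log2 fold change was 0.25 ± 0.11 (SE; 95% confidence interval 0.014 to 0.48), with an adjusted p of 0.393 in edgeR. *Mrps9*, of the head of the subunit, had medians of 16.1 CPM in WT and 19.1 CPM in LKO livers and a log2 fold change of 0.18 ± 0.090 (SE; adjusted p of 0.456 in edgeR). The confidence interval of *Mrps9* included 0.

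*Mrps18a*, *Mrps18b* and *Mrps18c* encode separate relatives of a single bacterial protein, and each mitochondrial ribosome holds the products of all of them at different places. *Mrps18c* had medians of 10.7 CPM in WT and 12.8 CPM in LKO livers and a log2 fold change of 0.17 ± 0.096 (SE). *Mrps18a*, whose protein sits on the large subunit, had medians of 22.03 and 24.2 CPM and a log2 fold change of 0.095 ± 0.088 (SE). Over the alternatives the log2 fold change of *Mrps18a* ran from 0.036 to 0.15. *Mrps18b* had medians of 12.0 and 12.4 CPM and a log2 fold change of 0.014 ± 0.089 (SE). None passed the test, and the groups overlapped in each.

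*Mrps30*, another protein named for the small subunit that sits on the large one, had medians of 18.8 CPM in WT and 20.2 CPM in LKO livers. Its log2 fold change was 0.13 ± 0.072 (SE; adjusted p of 0.523 in edgeR). *Mrps34*, a mitochondria-specific protein needed for a stable small subunit, had medians of 5.68 and 6.01 CPM and a log2 fold change of 0.064 ± 0.090 (SE). Both sets of livers overlapped between genotypes.

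*Mrps36* stood apart from the rest. Despite its symbol, its product is now known as a subunit of the 2-oxoglutarate dehydrogenase complex of the citric acid cycle, where it tethers the dehydrogenase component. It had the fewest reads of the 77 genes tested, with 2 to 16 reads per WT liver (median 8.5) and 17 to 35 reads per LKO liver (median 21). After scaling it stood at 0.118, 0.557 and 1.10 CPM (lowest, median, highest) in WT and at 0.976, 1.14 and 2.02 CPM in LKO livers. All 6 LKO livers lay above the WT mean, and the lowest LKO liver lay below the highest WT liver.

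The log2 fold change of *Mrps36* was 1.28 ± 0.38 (SE; 95% confidence interval 0.48 to 2.08), or 2.43-fold, with an adjusted p of 0.174 in edgeR. DESeq2 gave an adjusted p of 0.0351 for the same gene. Over the alternatives in which it was tested, its adjusted p ran from 0.0351 to 0.325. Its value therefore fell on either side of the threshold depending on the test.

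Reads of *Mrps36* are uncertain for another reason. Of the 50-base windows along its longest coding transcript, 36.2% also occurred in transcripts of 7 other genes. The processed pseudogenes *Mrps36-ps1* and *Mrps36-ps2* shared 24.1% and 23.6% of the windows. Coding bases 1 to 90 of *Mrps36* (gene at chr13:100735955-100744659, minus strand, GRCm38) are shown beside these copies, with each base that differs from *Mrps36* in capitals. A read from this stretch could match more than 1 of them, and such a read may have been left uncounted.
Mrps36: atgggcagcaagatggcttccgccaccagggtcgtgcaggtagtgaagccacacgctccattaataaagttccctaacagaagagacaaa
Mrps36-ps1 (chr17:53866715-53867020, minus strand): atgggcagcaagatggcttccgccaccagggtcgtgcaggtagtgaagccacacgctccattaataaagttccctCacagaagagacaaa
Mrps36-ps2 (chr7:105690259-105690567, minus strand): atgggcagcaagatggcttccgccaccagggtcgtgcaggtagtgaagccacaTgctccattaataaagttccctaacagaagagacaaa

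Each copy differed from *Mrps36* at 1 of these 90 bases. The table held 39 reads for *Mrps36-ps1* and 47 for *Mrps36-ps2* over all 12 livers, against 201 for *Mrps36*. Their log2 fold changes were 0.31 and -0.018, and neither passed the test. How far reads were exchanged between the gene and its copies, or left uncounted, was not tested.

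Levels within the family spread widely. Per kb of exon, the highest large subunit genes over all 12 livers were *Mrpl34* at 32.4 ± 2.52, *Mrpl14* at 26.8 ± 2.22 and *Mrpl2* at 26.2 ± 2.29 CPM per kb (SD, n = 12), all relatives of bacterial proteins. In the small subunit they were *Mrps7* at 28.5 ± 1.26, *Mrps24* at 19.7 ± 1.42 and *Mrps12* at 19.6 ± 2.01 CPM per kb, relatives of bacterial proteins as well. The SDs of *Mrpl14* and *Mrpl2*, and those of *Mrps24* and *Mrps12*, overlapped. Overlap of SDs does not settle an order, and the order was not tested. *Mrpl12*, *Mrpl38*, *Mrpl18* and *Mrpl50*, at 25.1 ± 2.03, 24.6 ± 2.71, 24.6 ± 2.05 and 23.5 ± 2.18 CPM per kb, also overlapped *Mrpl2*. *Mrps21* and *Mrps28*, at 16.9 ± 2.07 and 16.2 ± 1.72 CPM per kb, overlapped *Mrps12*. Which genes stand among the highest was not tested either, and *Mrpl38* and *Mrpl50* are mitochondria-specific. Without *Mrps36*, the 76 other genes tested covered a 27.8-fold range. With it the range was 74.8-fold in WT and 31.7-fold in LKO livers.

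At the lower end stood *Mrpl48*, found only in mitochondria, at 1.44 ± 0.154 and *Mrpl23*, a relative of a bacterial protein, at 1.16 ± 0.235 CPM per kb in the large subunit, and the mitochondria-specific *Mrps33* at 2.22 ± 0.202 and *Mrps25* at 1.19 ± 0.105 CPM per kb in the small subunit, with *Mrps36* at 0.731 ± 0.425 CPM per kb. *Mrpl53* had 7 reads in all livers together and was the gene left untested. Every 50-base window of its transcript also occurs in *Gm42688*, a gene on the same strand that overlaps it. Reads from this transcript could therefore not be told apart from those of *Gm42688*, for which 222 reads were counted. The low values need not mean few transcripts, since exon length here counts every annotated exon and *Mrps25* shares 73.9% of its windows with a neighbour.

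The median level was 11.1 CPM per kb over the large subunit and 5.99 CPM per kb over the small subunit, against 1.91 CPM per kb over all genes tested. Genes with bacterial relatives (48 tested) had a median of 9.41 CPM per kb and mitochondria-specific genes (28 tested) one of 8.65 CPM per kb. Their median log2 fold changes were 0.040 and 0.039. With a liver left out these medians ran from 0.019 to 0.050 and from 0.018 to 0.050, and with total count alone they were 0.097 and 0.094. The difference between these classes was not tested.

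**Figure D2:**
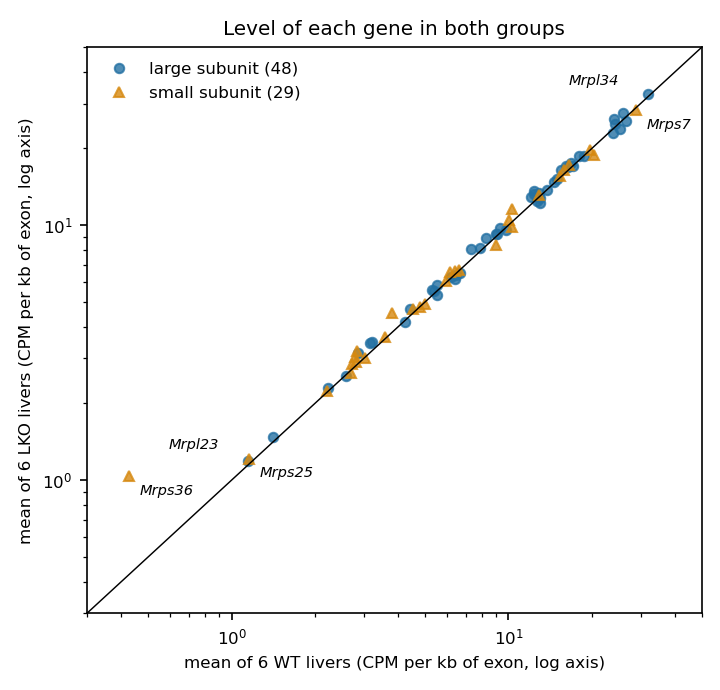
Mean level of each of the 77 genes tested in 6 WT (x axis) and 6 LKO livers (y axis), in CPM per kb of exon on log axes; circles are large subunit genes, triangles small subunit genes, and the line marks equal levels. All genes but *Mrps36* lay close to the line.

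The members took 0.1696%, 0.1714% and 0.1747% of all counts (lowest, median, highest) in WT and 0.1704%, 0.1850% and 0.1878% in LKO livers before TMM scaling. By this share 5 of 6 LKO livers lay above every WT liver, and the LKO mean was 1.06-fold the WT mean. After TMM scaling the groups lay closer together. The large subunit genes summed to 1144, 1189 and 1208 CPM (lowest, median, highest) in WT and to 1174, 1215 and 1244 CPM in LKO livers. The small subunit genes summed to 541, 567 and 586 CPM in WT and to 563, 575 and 596 CPM in LKO livers. The groups overlapped in both scaled sums, and the LKO mean was 1.02-fold the WT mean in each subunit. In bulk tissue, fewer cells of a type and less RNA per cell cannot be told apart.

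Livers were also compared by the median deviation of the genes' log2 CPM from each gene's mean over 12 livers. For the large subunit it ran from -0.073 to 0.022 in WT and from -0.039 to 0.065 in LKO livers. For the small subunit it ran from -0.12 to 0.043 in WT and from -0.013 to 0.068 in LKO livers. The lowest WT liver was replicate 6 and the highest WT liver replicate 3 in both subunits, and LKO replicate 6 was the highest of all livers in both. The lowest LKO liver was replicate 5 in the large and replicate 2 in the small subunit. The genotypes overlapped in both.

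**Figure D3:**
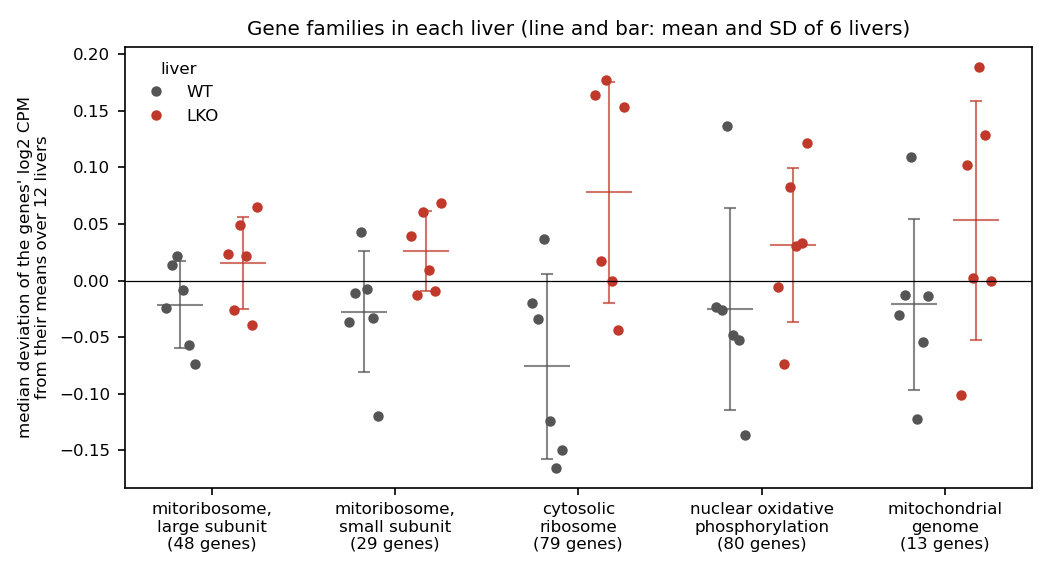
Median deviation of log2 CPM from each gene's mean over 12 livers (y axis) for gene families in 6 WT and 6 LKO livers; points are livers, lines and bars the mean and SD of 6. Both mitochondrial ribosome subunits spanned a narrower range than the cytosolic ribosome.

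Other gene families of translation and respiration give the scale. Of 79 cytosolic ribosomal protein genes tested, 76 had a log2 fold change above 0, with a median of 0.17 and 39 higher at an unadjusted p under 0.05 but 0 called by edgeR. DESeq2 called 5 of them, and edgeR called 5 with total count alone and 1 without WT replicate 3. The number at an unadjusted p under 0.05 in edgeR was 24 without WT replicate 5 and 43 without WT replicate 3. It was 28 with length and base composition corrected and 55 with total count alone. *Rps19* stood at 23.3 ± 2.39 CPM in WT and 28.8 ± 1.24 CPM in LKO livers, and its adjusted p was 0.0792 in edgeR. *Rpl36a* stood at 21.8 ± 1.53 and 28.4 ± 3.90 CPM, with an adjusted p of 0.0828 in edgeR. The cytosolic genes summed to 3878 to 4440 CPM in WT and 4219 to 4902 CPM in LKO livers, with overlap. Whether reads of the cytosolic genes were shared with copies elsewhere was not searched, and the difference between these families was not tested.

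The nuclear genes of oxidative phosphorylation were nearer to the mitochondrial ribosome. Of 80 tested, 61 lay above 0, the median log2 fold change was 0.050, and 14 were higher at an unadjusted p under 0.05 with 0 called by edgeR. With total count alone the median was 0.11, with 74 above 0, and with a liver left out it ran from 0.030 to 0.081, with 55 to 68 above 0. Genes at an unadjusted p under 0.05 in edgeR numbered 8 without LKO replicate 6, 24 without WT replicate 3 and 26 with total count alone. *Ndufa12* of complex I stood at 16.8 ± 1.81 CPM in WT and 20.5 ± 1.76 CPM in LKO livers (adjusted p of 0.168 in edgeR). *Cox7a2l* stood at 29.6 ± 0.582 and 33.5 ± 1.77 CPM (adjusted p of 0.192 in edgeR). Neither passed the test.

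The 13 protein-coding genes of the mitochondrial genome are the templates of these ribosomes. Of these, 8 lay above 0, the median log2 fold change was 0.087, and 4 were higher at an unadjusted p under 0.05 with 0 called by edgeR. With total count alone, 11 lay above 0 and the median was 0.14, while it was 0.046 with length and base composition corrected. With a liver left out the median ran from 0.059 to 0.11, with 8 above 0 throughout. The call count changed with the setting: edgeR called 1 with the upper quartile and with each of the 3 other filters, and 3 with total count alone. It also called 1 without LKO replicate 2 and 1 without WT replicate 3. The limma voom test called 1 and DESeq2 called 2. *mt-Nd1* stood at 6731 ± 553 CPM in WT and 8480 ± 280 CPM in LKO livers, with no overlap between groups and an adjusted p of 0.0623 in edgeR. *mt-Nd3* stood at 1.91 ± 0.643 and 4.67 ± 1.77 CPM (adjusted p of 0.0659 in edgeR). The groups overlapped in *mt-Nd3*. Its level was far below that of *mt-Cytb*, the most abundant gene of the list, at 13404 ± 566 CPM in WT livers. Why *mt-Nd3* had so few counts was not tested, so its value is uncertain.

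Proteins that build or serve the mitochondrial ribosome under other names gave 0 calls in edgeR. Of the 5 further subunit genes (*Dap3*, *Ptcd3*, *Chchd1*, *Aurkaip1* and *Gadd45gip1*), 2 lay above 0 and the median log2 fold change was -0.0054. Of the same 5, 4 lay above 0 with total count alone, at a median of 0.050, and with a liver left out the median ran from -0.040 to 0.013, with 1 to 4 above 0. *Chchd1* stood at 16.7 ± 0.819 CPM in WT and 15.9 ± 0.672 CPM in LKO livers, and *Aurkaip1* at 40.2 ± 4.16 and 41.4 ± 3.57 CPM. Of 32 assembly genes, 16 lay above 0, with a median log2 fold change of 0.0026 and none at an unadjusted p under 0.05. The counts were 22 above 0 and 2 at an unadjusted p under 0.05 with total count alone, where the median was 0.060. With a liver left out the median ran from -0.012 to 0.025, with 14 to 19 above 0. Among these, *Noa1*, a GTPase of small subunit assembly, stood at 11.2 ± 1.05 and 9.89 ± 1.00 CPM. *Lrpprc*, which stabilises mitochondrial mRNAs, stood at 158 ± 4.14 and 146 ± 10.8 CPM.

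Among 15 translation factors, 4 lay above 0 and the median log2 fold change was -0.028. *Taco1*, a translational activator of a cytochrome oxidase subunit, stood at 14.2 ± 1.87 CPM in WT and 12.0 ± 0.591 CPM in LKO livers (adjusted p of 0.288 in edgeR). *Oxa1l*, which inserts new proteins into the inner membrane, stood at 44.9 ± 2.65 and 49.2 ± 2.65 CPM (adjusted p of 0.396 in edgeR). With total count alone, 10 of the 15 lay above 0 and the median was 0.031. With a liver left out the median ran from -0.061 to -0.012, with 3 to 6 above 0.

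Of 22 mitochondrial tRNA synthetase and amidotransferase genes, 7 lay above 0 and the median log2 fold change was -0.045. *Fars2*, for phenylalanine, stood at 25.01 ± 2.02 CPM in WT and 29.9 ± 2.27 CPM in LKO livers (adjusted p of 0.144 in edgeR). *Lars2*, for leucine, stood at 816 ± 194 and 566 ± 152 CPM (adjusted p of 0.234 in edgeR). With total count alone, 12 of the 22 lay above 0 and the median was 0.012. With a liver left out the median ran from -0.068 to -0.044, with 5 to 9 above 0.

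Of 7 genes for mitochondrial transcription, 2 lay above 0, with a median log2 fold change of -0.10. *Mterf1a*, a termination factor, stood at 1.55 ± 0.372 CPM in WT and 1.24 ± 0.204 CPM in LKO livers, and *Polrmt*, the mitochondrial RNA polymerase, at 26.8 ± 1.52 and 24.9 ± 2.099 CPM. Of 9 nuclear regulators of mitochondrial genes, 3 lay above 0, with a median log2 fold change of -0.088. *Myc* stood at 4.49 ± 2.16 and 9.48 ± 7.28 CPM (adjusted p of 0.323 in edgeR), and *Yy1* at 96.2 ± 4.99 and 89.0 ± 6.97 CPM. These lists had 0 calls in edgeR. With a liver left out, the transcription median ran from -0.11 to 0.0056 and the regulator median from -0.087 to -0.038. They were -0.046 and -0.032 with total count alone.

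Cell type markers were read beside these values. The 8 hepatocyte markers summed to 100106, 103760 and 121360 CPM (lowest, median, highest) in WT and to 91098, 96260 and 102725 CPM in LKO livers. The 10 Kupffer cell markers, led by *Clec4f*, summed to 140, 172 and 190 CPM in WT and to 170, 221 and 293 CPM in LKO livers. All 10 Kupffer markers lay above 0, with a median log2 fold change of 0.38 and 9 at an unadjusted p under 0.05. Of the hepatocyte markers, 1 lay above 0 and the median log2 fold change was -0.11. With a liver left out, the hepatocyte median ran from -0.16 to -0.035. No marker passed the test in the edgeR fit with TMM, the 12 livers, the filter above and no block, while DESeq2 called 3 Kupffer, 1 endothelial and 1 neutrophil marker. In other edgeR fits 1 neutrophil marker was called without a filter, with the replicate number as a block and with total count alone, and 1 endothelial marker without LKO replicate 4. The neutrophil list summed to at most 0.55 CPM in any WT liver. Of its 2 markers tested, 1 passed the filter on its LKO counts, so no neutrophil call is taken as support for a difference. None of the marker lists had a gene at 0 in every liver.

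Among the other marker lists, the median log2 fold change was 0.069 for 8 endothelial, 0.23 for 8 stellate, 0.19 for 6 cholangiocyte, 0.87 for 5 B cell and 0.19 for 5 T and NK cell genes tested. It was 0.17 for 6 erythroid and -0.30 for 5 proliferation genes. Of 5 neutrophil markers, 2 were tested (*S100a8* and *S100a9*). Leaving out any LKO liver left 1 of them past the filter and leaving out any WT liver left both, so the filter let 1 through on its LKO counts and no median over the pair is given. Without a filter the median over all 5 was 1.81, and the list summed to at most 4.09 CPM in any liver. B cell markers summed to at most 2.60 CPM and T and NK cell markers to at most 2.03 CPM. Single livers carried several of these medians. The cholangiocyte median was -0.11 without LKO replicate 1, that of T and NK cells -0.021 without LKO replicate 5, and that of proliferation 0.032 without WT replicate 5. The endothelial median was 0.021 without LKO replicate 3 and 0.13 without WT replicate 3, and the erythroid median was 0.095 without LKO replicate 3. Whether the share of other cells has a part in the mitochondrial ribosome values was not tested.

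The genes are scattered over 17 chromosomes, with 11 of the 78 on chromosome 11 and 8 on chromosome 17. Many share a start region with another gene. For 23 of the 78 (29.5%), a protein-coding gene on the other strand starts within 1000 bases upstream or overlaps by up to 200 bases, against 11.3% of protein-coding genes tested. *Mrps12* starts 172 bases from *Sars2*, the mitochondrial seryl-tRNA synthetase, which had a log2 fold change of -0.26. *Mrpl49* starts 59 bases from *Fau*, which encodes a cytosolic ribosomal protein, with 40.3 CPM in WT and 44.6 CPM in LKO livers. Neither partner was called.

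RefSeq promoters (GRCm38.p6, 300 bases from 250 before to 50 after the start) were found for 69 of the 78 genes. Not matched were *Mrpl4*, *Mrpl13*, *Mrpl15*, *Mrpl19*, *Mrpl38*, *Mrpl54*, *Mrps28*, *Mrps34* and *Mrps35*. Letter strings of factors known for nuclear genes of mitochondria were searched on both strands. GCATGCGC, the core bound by NRF1, occurred in 8 promoters (11.6%), against 3.05% of all genes with a promoter and 3.93% of protein-coding ones. CCGGAAGT, bound by ETS factors such as GABPA, occurred in 12 (17.4%), against 4.31% and 5.69%. ATGGCGGC, bound by YY1, occurred in 12 (17.4%), against 2.60% and 3.499%.

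Other strings were no more frequent than elsewhere. CACGTG occurred in 5 promoters (7.25%), against 8.09% of all genes, and TATAAA in 5 (7.25%), against 15.7%. At least 1 of the NRF1, ETS and YY1 strings occurred in 27 of the 69 (39.1%), against 9.22% of all genes and 12.1% of protein-coding ones. The members' 75 promoters had a median of 58.7% G and C, against 56.3% for promoters of protein-coding genes. A match describes letters only and is not a measured binding site.

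Of the 10 genes with the lowest unadjusted p in their subunits, 9 had a promoter. The NRF1, ETS or YY1 string occurred in 5 of them (*Mrpl3*, *Mrpl9*, *Mrps11*, *Mrps18c* and *Mrps30*) and in none of *Mrpl12*, *Mrpl42*, *Mrps9* and *Mrps36*. Promoters of *Mrpl9*, *Mrps11* and *Mrps18c*, picked because they hold these strings, are shown with the searched strings in capitals, on the strand of the gene.
Mrpl9 (chr3:94443086-94443385, plus strand): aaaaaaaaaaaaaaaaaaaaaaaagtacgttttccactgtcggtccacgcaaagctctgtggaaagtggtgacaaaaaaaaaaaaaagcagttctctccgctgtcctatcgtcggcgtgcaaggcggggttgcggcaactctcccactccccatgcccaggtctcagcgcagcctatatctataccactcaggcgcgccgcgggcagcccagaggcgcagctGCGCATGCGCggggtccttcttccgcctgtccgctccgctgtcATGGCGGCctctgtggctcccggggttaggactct
Mrps11 (chr7:78782881-78783180, plus strand): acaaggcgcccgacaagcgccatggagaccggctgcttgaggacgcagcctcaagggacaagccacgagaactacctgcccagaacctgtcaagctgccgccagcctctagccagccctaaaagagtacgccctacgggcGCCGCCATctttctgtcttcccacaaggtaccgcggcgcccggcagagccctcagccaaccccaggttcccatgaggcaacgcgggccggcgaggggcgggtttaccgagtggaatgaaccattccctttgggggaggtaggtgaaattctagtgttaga
Mrps18c (chr5:100798509-100798808, plus strand): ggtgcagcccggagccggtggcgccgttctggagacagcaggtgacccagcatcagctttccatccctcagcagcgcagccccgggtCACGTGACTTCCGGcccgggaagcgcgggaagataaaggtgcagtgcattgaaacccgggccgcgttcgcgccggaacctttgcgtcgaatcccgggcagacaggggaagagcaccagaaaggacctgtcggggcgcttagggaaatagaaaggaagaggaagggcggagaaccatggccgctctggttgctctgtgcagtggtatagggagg

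In *Mrpl9* the NRF1 string occurred on both strands at overlapping places, and the YY1 string began 16 bases after the start. In *Mrps11* the YY1 string lay on the opposite strand. In *Mrps18c* the string CACGTG touched the ETS string, which lay on the opposite strand. The 3 genes thus carried different combinations of the strings.

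Several genes are uncertain because reads may be shared or left uncounted. The strand setting of the counting was not given in the sources used here. Reads from places where genes overlap on opposite strands could therefore be left uncounted or given to the other gene. *Mrps25* shares 69.8% of its exon bases with *Nr2c2*, *Mrps34* 63.4% with *Mapk8ip3*, *Mrpl19* 36.0% with *Gcfc2* and *Mrpl43* 33.4% with *Twnk*, the mitochondrial helicase. *Mrpl46* and *Mrps11* overlap each other by 173 exon bases on opposite strands. More than 20% of the 50-base windows were shared in 17 of the 78 genes, among them *Mrpl13*, *Mrpl23* and *Mrps18b*. Of these 17, *Mrpl23* shares 66.7% of its windows with the pseudogene *Mrpl23-ps1*, which had 386 reads against 1194.

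Gene length and base composition were set beside the differences. The tested members had a median exon length of 2533 bases, against 3637 over all genes tested, and a median of 49.7% G and C, against 49.2%. Over all genes tested, the median log2 fold change was 0.024 in the shortest of 5 classes of exon length and -0.023 in the longest. Of the 77 tested members, 23 fell in the shortest class and 7 in the longest. Once the trend in length and base composition was removed from each library, the medians were 0.014 for the large and 0.0057 for the small subunit. The median over all genes was then -0.012.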

How the data were processed

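The authors trimmed reads with Trimmomatic 0.36, aligned them to GRCm38 with HISAT2 2.1.0 and counted them with HTSeq 0.6.1. The deposited table holds raw counts, and no setting for strand or overlap was found in the sources used here. Symbols, coordinates and exon lengths came from GENCODE M21 (GRCm38). Libraries were scaled by TMM, and genotype was fitted in edgeR 4.0.16 (R 4.3.3) by quasi-likelihood. The 95% confidence intervals used the SE and degrees of freedom of the fit. The alternatives were other scalings and filters, limma 3.58.1, DESeq2 1.42.0, a replicate block, a correction for length and base composition, subunits by position in the ribosome, and each liver left out.

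Named genes were, per subunit, the 5 with the lowest unadjusted p and the 3 with the highest and the 3 with the lowest level per kb, then 12 members with known roles, and from each pathway list the 2 with the lowest unadjusted p. The members and lists were chosen with earlier results of these data known.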

Additional observations from a re-analysis of the deposited data

Results flagged for a closer look

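In *Mrpl42*, LKO replicate 1 lay far below the other 5 LKO livers, at 25.9 CPM in a group whose median was 30.4 CPM. The gap to the nearest liver was 0.694 of the group's range. This was the only such liver in 62 groups of 6 searched, while chance flags about 1 in 20 groups.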

How the results depend on the processing

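Over the alternatives, 0 large subunit genes were called throughout, and the small subunit had 0 called except with DESeq2, where 1 (*Mrps36*) was; the cause was not tested. Its log2 fold change there was 1.28. The medians were 0.0972 and 0.0903 with total count alone, where the median over all genes was 0.056; the cause was not tested. With a liver left out they ran from 0.025 to 0.062 and from 0.014 to 0.050, with 29 to 37 and 17 to 23 genes above 0. All genes called numbered 75 at first, 350 with DESeq2, 114 without a filter, 147 with total count alone (81.0% higher, against 64% with TMM) and 38 to 132 with a liver left out. With the replicate number as a block, 97 genes and 0 members were called. Livers of the same number correlated at -0.066 to 0.135, and not each liver correlated best with its own number. *Mrps36* was not tested where at least 10 reads were asked of every liver.

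Of 27 named members tested, 16 kept their direction in every alternative and 11 did not; the cause was not tested. With total count alone the log2 fold change was 0.0079 for *Mrpl2*, 0.0338 for *Mrpl44*, 0.0472 for *Mrpl11*, 0.0549 for *Mrpl10* and 0.0241 for *Mrps7*. *Mrpl11* was at 0.006 without a filter and 0.007 with the upper quartile. *Mrpl10* was at 0.0079 with at least 10 reads per liver, 0.0044 with edgeR's own filter, 0.0147 without a filter, 0.0003 without the 20 most abundant genes and 0.0161 with the upper quartile. With length and base composition corrected, *Mrps18b* was at -0.0207, *Mrps33* at -0.0111 and *Mrps24* at -0.0367. *Mrps24* was at -0.0035 with DESeq2, -0.0026 with RLE and -0.0009 with limma voom. With each liver left out in turn, the log2 fold change ran from -0.0029 to 0.0636 for *Mrpl34*, -0.0029 to 0.0859 for *Mrpl58*, -0.0198 to 0.1781 for *Mrpl23*, -0.0587 to 0.0082 for *Mrpl44*, -0.0336 to 0.0159 for *Mrpl11*, -0.0205 to 0.0235 for *Mrpl10*, -0.0282 to 0.0729 for *Mrps18b*, -0.0334 to 0.0496 for *Mrps33* and -0.0374 to 0.0234 for *Mrps24*.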
